A study of Mus musculus with 8 samples.

Results

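The tripartite motif (TRIM) family was examined in mouse bone-marrow derived macrophages that had been given LPS plus IFNg, IL4 or no stimulus. Members were all genes of the deposited expression table whose symbol is Trim followed by a number and whose values were not the same in every library. The table held 20259 transcript rows, of which 62 had such a symbol. In 20 of these every library was listed at 0, among them Trim38, Trim9 and Trim63, and the other 42 are the members described here.

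TRIM proteins typically hold a RING finger, 1 or more B-boxes and a coiled coil, and most act as ubiquitin ligases. The part that follows the coiled coil differs between members and sets what a protein binds. A large branch with a PRY/SPRY domain is known for antiviral defence and for control of the pathways that sense viral and bacterial products, and several of its genes are interferon-stimulated genes. Other members silence chromatin, bind RNA through NHL repeats, or serve in muscle and the cytoskeleton.

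All cells came from marrow of C57BL/6 mice and were harvested 24 h into the treatment. There were 3 libraries with lipopolysaccharide and interferon gamma together (LPS plus IFNg), the usual stimulus for classical activation, 3 with the cytokine IL4, the usual stimulus for alternative activation, and 2 unstimulated libraries. The sex and age of the mice and the stimulus doses are not given in the labels. The labels also do not say whether libraries of a group came from separate mice or cultures, so p-values measure the spread between these libraries, which may be technical. RNA was read at the 3' ends of polyadenylated transcripts, and values are the authors' log2 expression after quantile normalisation, which makes 1 unit a doubling. These values carry no read depth, so the depth of the libraries is unknown.

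All 9 macrophage markers that were found were above 0 in every library, but they differed between the groups. With LPS plus IFNg, 1 (Fcgr1) was higher and 2 (Csf1r and Lyz2) were lower than without stimulus, and 4 (Fcgr1, Cd14, Mpeg1 and Mertk) were higher than with IL4. With IL4, 5 (Fcgr1, Cd14, Mpeg1, Mertk and Lyz2) were lower than without stimulus, by log2 differences of -3.48 to -1.63. These calls were made by limma at an adjusted p under 0.05. Of all rows tested, 3.72% were called higher and 4.25% lower with LPS plus IFNg than without stimulus. Against IL4 these shares were 5.91% and 6.96%, and 0.793% of rows were called lower with IL4 than without stimulus. Their summed level, on a log2 scale, was 14.10 to 14.46 in LPS plus IFNg libraries, 13.29 to 13.85 in IL4 libraries and 14.55 to 14.57 in unstimulated libraries. The summed level of 8 neutrophil markers was 7.75 to 8.33 with LPS plus IFNg, 10.04 to 10.80 with IL4 and 11.18 to 11.30 without stimulus, and 4 of the 8 fell past the threshold in each comparison of LPS plus IFNg. The 5 fibroblast markers summed to 10.24 to 11.21, 10.14 to 10.71 and 11.21 to 11.62 in the same order of groups. The 6 dendritic cell markers summed to at most 6.30 in any library, the 5 mast cell markers to at most 4.81 with Fcer1a at 0 throughout, and the 6 lymphocyte markers to at most 5.31 with Cd3e and Ncr1 at 0 throughout. The part of these other cells in the results below was not tested, and in bulk RNA fewer cells of a type and less RNA per cell cannot be told apart.

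Of the 8 members with a call in any comparison, 5 lie in 1 cluster of TRIM genes, which holds no other of the 42 members. The shares of all rows called are given for each comparison with the results below. Whether calls gather in this cluster was not tested. Of the 42 members, 10 map to chromosome 7 and 8 to chromosome 11. In the RefSeq gene order of GRCm38, Trim6 and Trim34a are direct neighbours on chromosome 7, Trim12a follows after Trim5, and Trim30a and Trim30d are direct neighbours at the far end of the same cluster. The genes between these, Trim5, Trim34b, Trim12c, Gm38525, Trim30b and Trim30c, are not analysed here. Trim21 lies on the same chromosome outside this cluster, and Trim25 is on chromosome 11.

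Promoter windows from RefSeq (GRCm38.p6), 250 bases before to 50 bases after each annotated start, were found for 30 of the 42 members and searched on both strands for 2 motifs. The first was the core of the interferon-stimulated response element (ISRE), the letters GAAA repeated after a gap of 2 bases of any kind, a sequence known from the promoters of interferon-stimulated genes. The second was the gamma-activated site (GAS), TTCNNNGAA, known from promoters that respond to interferon gamma. Overlapping matches were each counted. The ISRE core was found in 6 of the 9 antiviral TRIM genes that had a window (Trim30a, Trim30d, Trim12a, Trim34a, Trim21 and Trim26) and in 7 of the 30 members, the other being Trim2. It was found in 3.99% of all 27025 genes with a window and in 3.44% of all 32851 windows. The antiviral and interferon-linked members were listed with results of these data known, so their share is a description. The GAS letters were found in 1 of the 30 members, Trim45, in none of the 9 antiviral ones, and in 9.55% of all genes with a window (8.30% of windows). A match describes these letters and not a bound site.

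Of the 6 antiviral genes with a core, Trim30a, Trim30d, Trim12a and Trim34a were called between LPS plus IFNg and IL4. Trim21 and Trim26 were not. Trim25 and Trim6, which had a window without a core, were called as well, and Trim56, also without a core, was not. Whether a match goes with a call was not tested. The sequences below show the matches in the 6 genes. They are written 5' to 3' on the strand of the gene, and capitals mark the ISRE core, which reads as TTTC, 2 bases and TTTC where it lies on the other strand. For Trim30a and Trim30d the 100 bases before the start are printed, and for the others 30 bases around the match.
Trim30a, chr7:104465194-104465293, minus strand: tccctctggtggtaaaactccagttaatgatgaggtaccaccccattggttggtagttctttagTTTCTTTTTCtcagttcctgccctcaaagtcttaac
Trim30d, chr7:104507850-104507949, minus strand: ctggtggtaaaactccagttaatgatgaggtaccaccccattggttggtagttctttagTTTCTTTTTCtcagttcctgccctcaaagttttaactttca
Trim12a, chr7:104315466-104315495, minus strand: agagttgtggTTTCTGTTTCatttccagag
Trim34a, chr7:104244457-104244486, plus strand: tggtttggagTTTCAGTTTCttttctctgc
Trim21, chr7:102565447-102565476, minus strand: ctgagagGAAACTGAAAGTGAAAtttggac
Trim26, chr17:36836979-36837008, plus strand: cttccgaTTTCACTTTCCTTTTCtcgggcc
The Trim30a and Trim30d stretches aligned with 94 identical bases, 1 mismatch and 10 gap positions. The gap positions all lie at the ends, where the stretches were cut relative to each start. The 89.5% identity counts these gap positions, so it understates the likeness of the bases that both stretches hold. The core covers positions -36 to -27 relative to the start of Trim30a printed here and -41 to -32 relative to that of Trim30d. A second annotated start of Trim30a, not printed, has a core from 3 to 12 bases into the transcript. In Trim12a and Trim34a the core covers the same positions, 11 to 20 bases into the transcript. Trim21 and Trim26 each hold a pair of overlapping cores, from 14 to 29 bases into the transcript of Trim21 and from position -160 to position -145 relative to the start of Trim26.

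**Figure D1:**
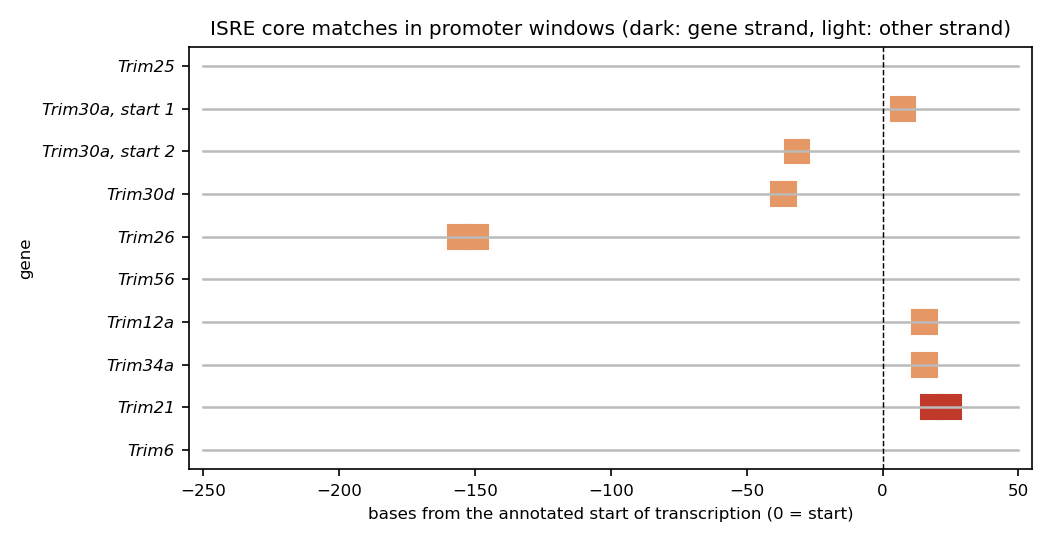
Positions of ISRE core matches in the RefSeq promoter windows of the antiviral TRIM genes, 1 line per annotated start, with the distance from the start of transcription in bases on the horizontal axis. Dark boxes are matches on the strand of the gene and light boxes on the other strand; matches in Trim12a, Trim34a and Trim21 lie just after the start, those in Trim30d and 1 of the Trim30a windows just before it, and no box is drawn for Trim25, Trim56 and Trim6.

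LPS plus IFNg raised 4 TRIM genes and lowered 1 relative to unstimulated cells. Those that rose were Trim30a, Trim30d, Trim12a and Trim25, and Trim59 fell. Against a background of 3.72% of the 13615 rows tested called higher and 4.25% called lower, the members' shares were 9.52% (4 of 42) and 2.38% (1 of 42). The median log2 difference was 0.51 over the members and -0.04 over all rows. Tests were two-sided limma tests over all rows, and a gene passed at a Benjamini-Hochberg adjusted p under 0.05. Without regard to the test, the libraries did not overlap for 14 members in the higher direction and 3 in the lower, where 16.1% and 20.7% of all rows did the same.

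IL4 lowered 1 member, Trim30a, relative to the same unstimulated libraries and raised none. Of all rows tested, 0.793% were called lower and 0.514% higher. At an unadjusted limma p under 0.05, 4 members were lower (Trim30a, Trim30d, Trim12a and Trim3) and 0 higher. That is 9.52% of the members lower, against 6.57% of all rows lower and 5.53% higher at the same unadjusted p. The members' median difference was -0.21, against -0.01 over all rows, and 11 members were lower and 1 higher with libraries that did not overlap, where 14.7% and 11.7% of all rows were. Both stimuli are set against the same 2 unstimulated libraries, so an error in these moves both sets of differences.

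Set directly against each other, LPS plus IFNg stood above IL4 in 6 members (Trim30a, Trim30d, Trim12a, Trim25, Trim34a and Trim6) and below it in 2 (Trim28 and Trim59). These are 14.3% and 4.76% of the members, against 5.91% and 6.96% of all rows called higher and lower. The members' median difference was 0.71, against 0 over all rows. Libraries did not overlap for 12 members in the higher and 3 in the lower direction, where 12.4% and 14.8% of all rows did not.

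**Figure D2:**
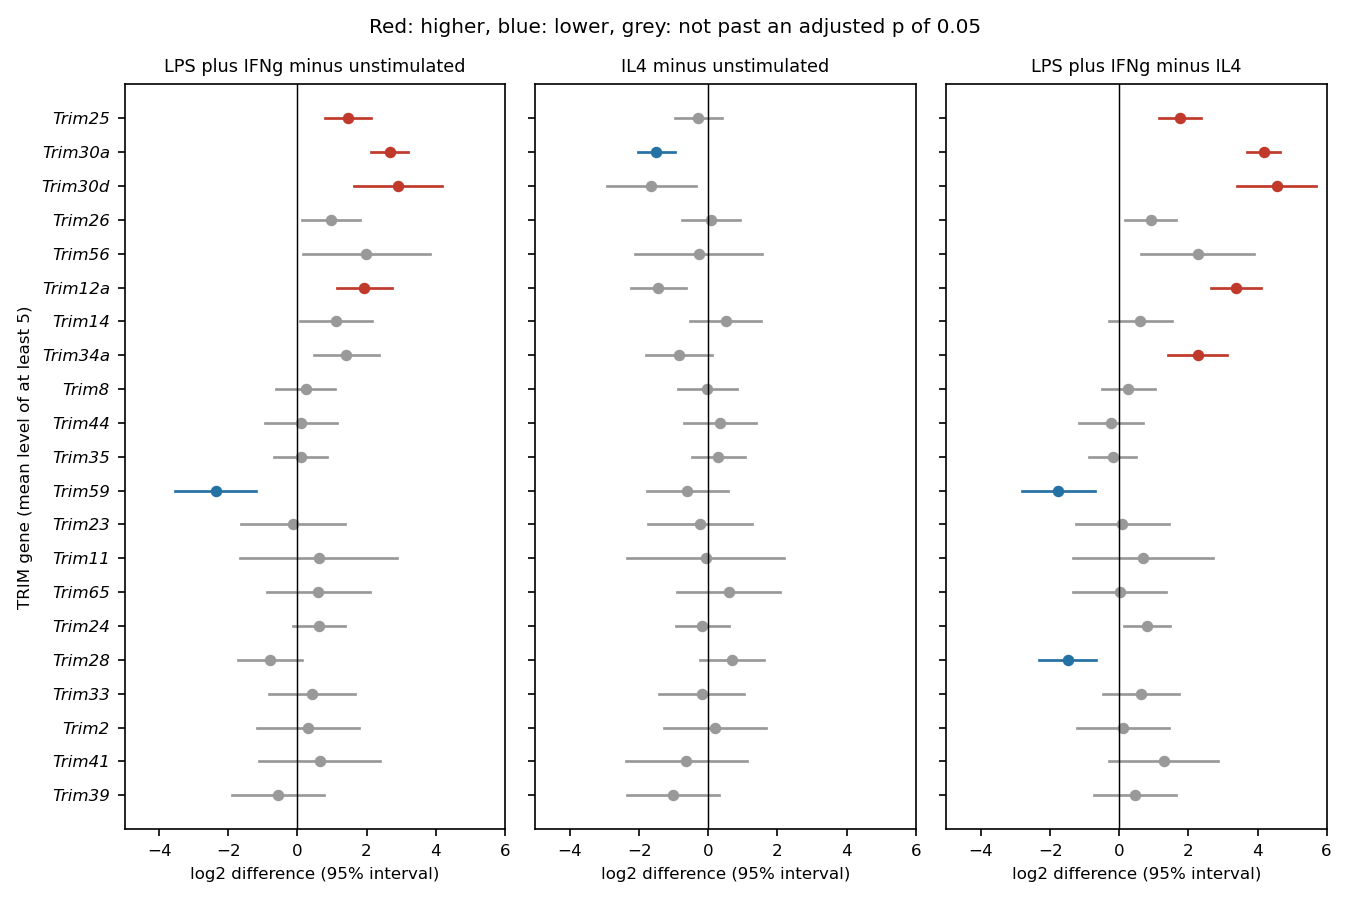
Log2 differences (points) with 95% intervals (lines) for the 21 TRIM genes with a mean level of at least 5, for LPS plus IFNg minus unstimulated, IL4 minus unstimulated and LPS plus IFNg minus IL4. Red marks genes called higher and blue genes called lower at an adjusted p of 0.05; the red points are all in the antiviral group at the top, and the blue points are Trim59, Trim28 and, for IL4, Trim30a.

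The antiviral and interferon-linked members held every call in the higher direction. Of 19 such genes listed, 11 were in the table and 10 varied. Against unstimulated cells, 4 of the 10 rose with LPS plus IFNg, 6 did not pass, and all 10 had every LPS plus IFNg library above both unstimulated ones. Their median difference was 1.96. With IL4, 1 of the 10 fell and 9 did not pass, with a median of -1.10. Between LPS plus IFNg and IL4, 6 were higher and 4 did not pass, with a median of 2.83 and 9 genes without overlap. Of all rows tested, 3.72% were called higher with LPS plus IFNg and 0.793% lower with IL4, each against unstimulated cells. Between the stimuli, 5.91% were called higher with LPS plus IFNg. All rows without overlap in the higher direction were 16.1% against unstimulated cells and 12.4% against IL4. The list of antiviral members, like the others, was drawn up with results of these data known, so its direction is a description.

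Trim30a, a mouse TRIM protein known to dampen NF-kB signalling downstream of Toll-like receptors, had the smallest adjusted p of the members in each comparison. Its levels were 12.41, 11.91 and 12.05 in the LPS plus IFNg libraries, 8.02, 8.14 and 7.67 in the IL4 libraries and 9.59 and 9.31 in the unstimulated libraries. The groups did not overlap: every LPS plus IFNg library was above, and every IL4 library below, both unstimulated ones. The mean was 12.12 ± 0.26 with LPS plus IFNg (SD, n = 3), against 9.45 ± 0.19 without stimulus (n = 2), a log2 difference of 2.67 (SE 0.23, 6.37-fold, limma adjusted p = 0.00135). IL4 libraries averaged 7.94 ± 0.24 (n = 3), which was 1.51 lower than unstimulated on the log2 scale (log2 difference -1.51, SE 0.23, limma adjusted p = 0.0311). LPS plus IFNg stood 4.18 above IL4 (SE 0.21, 18.1-fold, limma adjusted p = 0.000105). Leaving out any 1 library kept both LPS plus IFNg calls. The IL4 call was lost in 7 of the 8 fits with a library left out, all but the one without LPS plus IFNg replicate 1, with an adjusted p of up to 0.10 and differences of -1.64 to -1.37, and also with no intensity trend or when LPS plus IFNg libraries were kept out of the fit (adjusted p = 0.0963 and 0.0977).

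Trim30d is the neighbouring paralog of Trim30a. It had levels of 10.87, 10.67 and 11.28 with LPS plus IFNg, 7.22, 6.73 and 5.20 with IL4 and 7.96 and 8.10 without stimulus. Its groups stood in the same order as those of Trim30a without overlap, with a wider spread among IL4 libraries (SD 1.05, against 0.24 for Trim30a). It rose by 2.91 with LPS plus IFNg relative to unstimulated cells (SE 0.55, 7.51-fold, limma adjusted p = 0.0203) and stood 4.56 above IL4 (SE 0.49, 23.5-fold, adjusted p = 0.00145). The IL4 difference from unstimulated cells, -1.65 (SE 0.55), did not pass (adjusted p = 0.272). The last 300 bases of Trim30d shared a run of 38 identical bases with some part of an annotated Trim30a transcript. With Trim30c the longest such run was 51. These runs need not lie at the ends of the other transcripts. When the last 300 bases of 2 members were compared, only 1 of 861 pairs, Trim43a and Trim43c, shared a run of 25 or more. No source used here says how reads with several matches were counted, so the split of reads between these copies is uncertain. The rise against unstimulated cells was lost when any LPS plus IFNg or unstimulated library was left out (adjusted p up to 0.152).

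Trim12a, a mouse relative of the primate retrovirus restriction factor TRIM5, had levels of 8.65, 8.73 and 8.83 with LPS plus IFNg, 5.58, 4.78 and 5.72 with IL4 and 6.64 and 6.97 without stimulus. The 3 groups did not overlap. It rose by 1.93 with LPS plus IFNg relative to no stimulus (SE 0.34, 3.81-fold, limma adjusted p = 0.0152) and stood 3.38 above IL4 (SE 0.30, 10.4-fold, adjusted p = 0.000749). The IL4 difference of -1.45 (SE 0.34) did not pass (adjusted p = 0.119). Without LPS plus IFNg replicate 2 or 3, or either unstimulated library, the rise against no stimulus did not pass (adjusted p up to 0.0868).

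Trim34a, the counterpart of human TRIM34, which binds retroviral capsids, had levels of 7.04, 6.47 and 6.85 with LPS plus IFNg, 4.55, 4.48 and 4.52 with IL4 and 5.31 and 5.41 without stimulus. Again no library of a group reached into another. LPS plus IFNg stood 2.27 above IL4 (SE 0.36, 4.81-fold, limma adjusted p = 0.00718). Its difference from no stimulus was 1.42 (SE 0.41, 95% interval 0.47 to 2.37), which missed the threshold (limma adjusted p = 0.0886). It passed with no intensity trend (adjusted p = 0.0304), with values below 0 set to 0 (0.0426) and with housekeeping scaling (0.0262). That of IL4 was -0.85 (SE 0.41, adjusted p = 0.475).

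Trim6, at the other end of the chromosome 7 cluster, is known in human cells to build ubiquitin chains that activate the kinase IKK-epsilon. It was listed at 2.91, 3.64 and 5.69 in LPS plus IFNg libraries, at 0 in all 3 IL4 libraries, and at 0 and 2.71 in the unstimulated ones. The comparison with IL4 passed (limma adjusted p = 0.0370), and no fold is given against a group listed at 0. It was lost in 5 of the 8 fits with a library left out, those without any of the IL4 libraries or without LPS plus IFNg replicate 2 or 3 (adjusted p up to 0.104), and when the lowest 0.25 of rows by mean level was left out before the fit.

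Trim25, the ubiquitin ligase that acts with the RNA sensor RIG-I, had levels of 10.99, 10.91 and 11.10 with LPS plus IFNg, 9.31, 9.68 and 8.75 with IL4 and 9.32 and 9.75 without stimulus. LPS plus IFNg libraries were above all others, while the IL4 and unstimulated libraries overlapped. It rose by 1.46 relative to no stimulus (SE 0.29, 2.76-fold, limma adjusted p = 0.0236) and stood 1.75 above IL4 (SE 0.26, 3.37-fold, adjusted p = 0.00497). The IL4 difference from no stimulus was -0.29 (95% interval -0.96 to 0.38, adjusted p = 0.748). The rise against no stimulus was lost in 6 of the 8 fits with a library left out, those without any LPS plus IFNg or unstimulated library or without IL4 replicate 1 (adjusted p up to 0.156), and with no intensity trend (0.0634). The calls of Trim30a, Trim30d, Trim12a, Trim34a and Trim25 between LPS plus IFNg and IL4 were kept in all 8.

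**Figure D3:**
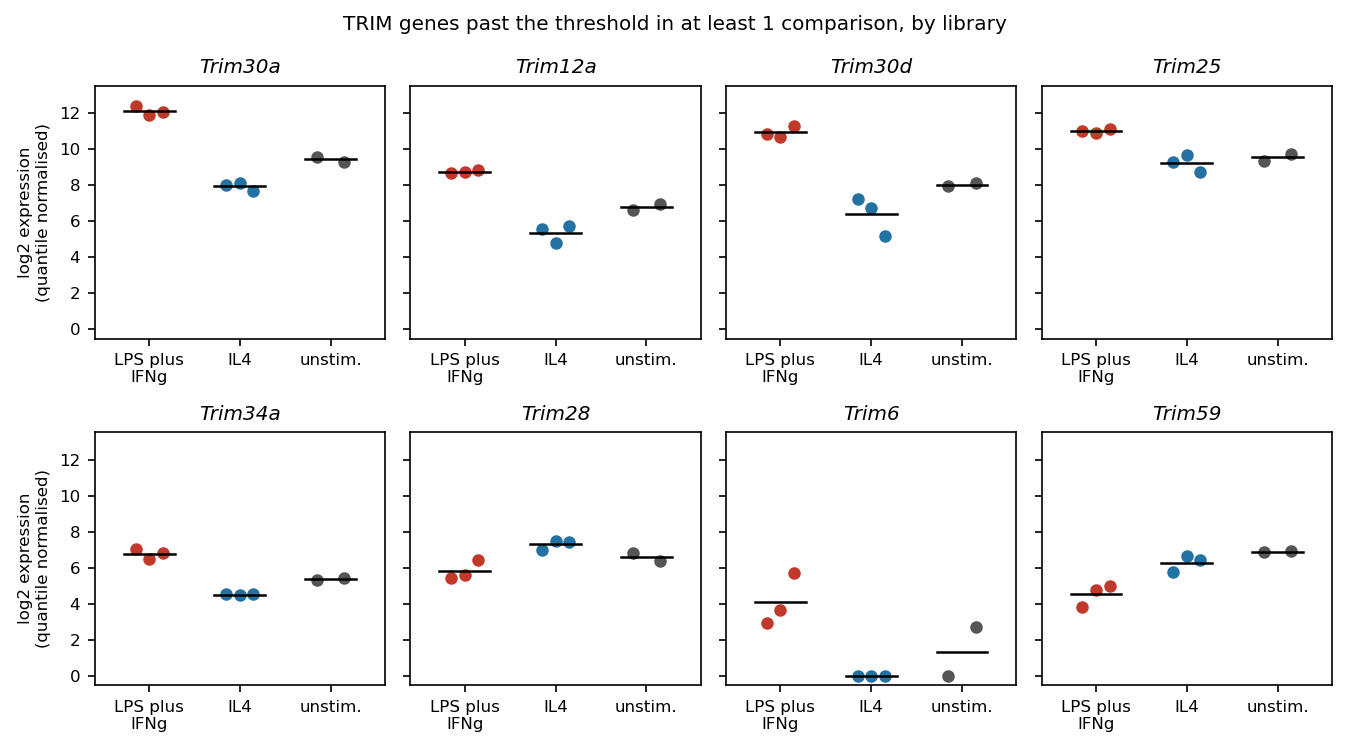
Log2 expression of the 8 TRIM genes past the threshold in at least 1 comparison, with 1 point per library and the group mean as a line, for LPS plus IFNg (red, n = 3), IL4 (blue, n = 3) and unstimulated cells (grey, n = 2). Trim30a, Trim30d, Trim12a and Trim34a run LPS plus IFNg, unstimulated, IL4 from high to low without overlap, while for Trim28 the IL4 libraries are the highest and LPS plus IFNg replicate 3 lies between the unstimulated ones.

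The remaining antiviral members did not pass in any comparison. Trim56, known to promote STING signalling, had levels of 8.79, 8.36 and 8.07 with LPS plus IFNg, 4.79, 6.29 and 7.34 with IL4 and 7.26 and 5.58 without stimulus. Trim26, a ubiquitin ligase that controls interferon beta production, had 8.80, 8.83 and 8.06, then 7.54, 7.47 and 7.97, then 8.0 and 7.18 in the same order of groups. For both genes the LPS plus IFNg libraries were above all others, and IL4 and unstimulated libraries overlapped. The differences between LPS plus IFNg and no stimulus were 1.99 for Trim56 (95% interval 0.16 to 3.82, limma adjusted p = 0.215) and 0.97 for Trim26 (0.13 to 1.81, adjusted p = 0.183).

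Trim21 and Trim14 complete the antiviral group. Trim21, the cytosolic antibody receptor, had levels of 6.68, 6.18 and 7.09 with LPS plus IFNg, was listed at 0, 4.48 and 3.63 with IL4, and had 4.05 and 4.56 without stimulus. Trim14, a mitochondrial adaptor of RIG-I-like receptor signalling, had levels of 6.50, 6.61 and 7.01 with LPS plus IFNg, 6.59, 5.48 and 6.21 with IL4 and 5.31 and 5.87 without stimulus. LPS plus IFNg was above no stimulus in every library of both genes (limma adjusted p = 0.380 and 0.216), and above IL4 without overlap for Trim21 only (adjusted p = 0.0705).

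Among 11 members linked to innate signalling, 1 fell with LPS plus IFNg relative to no stimulus, 10 did not pass, and none passed with IL4. The 1 that fell is 9.09% of the 11, where 4.25% of all rows tested fell. With IL4, 0.514% of all rows were called higher and 0.793% lower. The median difference of the 11 members for LPS plus IFNg against no stimulus was 0.10. For IL4 the limma test also gave none at an unadjusted p under 0.05. The member that fell, Trim59, encodes a membrane-anchored TRIM protein. Its levels were 3.84, 4.78 and 4.96 with LPS plus IFNg, 5.78, 6.64 and 6.44 with IL4 and 6.87 and 6.91 without stimulus. The groups did not overlap, and the mean was 4.53 ± 0.60 with LPS plus IFNg (SD, n = 3), against 6.89 ± 0.03 without stimulus (n = 2).

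Trim59 thus differed by -2.36 between LPS plus IFNg and no stimulus (SE 0.50, limma adjusted p = 0.0316) and by -1.76 between LPS plus IFNg and IL4 (SE 0.45, adjusted p = 0.0437). The first call was lost without IL4 replicate 3, LPS plus IFNg replicate 2 or either unstimulated library (adjusted p up to 0.137), and the second without any library other than IL4 replicate 1 (up to 0.109). With the libraries scaled to equal housekeeping levels the differences were -1.61 and -1.08 and neither passed (adjusted p = 0.0840 and 0.142), and neither passed when the libraries of the other group were kept out of the fit (0.0678 and 0.0833). The neutrophil markers, whose summed level is given above, were also lower with LPS plus IFNg; their part in this result was not tested.

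The best measured of the other innate signalling members gave no call. Trim8, a regulator of cytokine signalling that binds SOCS1, had levels of 8.88, 9.81 and 9.79 with LPS plus IFNg, 9.29, 8.91 and 9.50 with IL4 and 8.92 and 9.60 without stimulus, and all 3 groups overlapped. Its difference between LPS plus IFNg and no stimulus was 0.23 (95% interval -0.62 to 1.09). For Trim44, which lacks a RING finger, it was 0.09 (-0.94 to 1.13), for Trim35 it was 0.10 (-0.67 to 0.86) and for Trim23, which carries an ARF-like GTPase domain, it was -0.14 (-1.64 to 1.36). These intervals leave room for changes of up to about a doubling or more, so they do not show that these genes were unaffected.

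The 4 chromatin members gave 1 call, lower with LPS plus IFNg than with IL4, where 6.96% of all rows tested were called lower. None of the 4 passed against no stimulus with either stimulus, and none did at an unadjusted limma p under 0.05. Trim28, the corepressor KAP1 that silences retroelements together with KRAB zinc-finger proteins, had levels of 5.44, 5.60 and 6.41 with LPS plus IFNg, 6.97, 7.51 and 7.44 with IL4 and 6.83 and 6.39 without stimulus. IL4 libraries were the highest, and LPS plus IFNg replicate 3 reached just past the lower unstimulated library. LPS plus IFNg was 1.49 lower than IL4 (log2 difference -1.49, SE 0.35, limma adjusted p = 0.0338).

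The Trim28 call did not pass in 7 of the 8 fits with a library left out, all but the one without LPS plus IFNg replicate 3 (adjusted p up to 0.101). With housekeeping scaling its difference was -0.81 and did not pass (adjusted p = 0.147), nor did it when unstimulated libraries were kept out of the fit (0.0601). Trim24 and Trim33, the related transcriptional cofactors TIF1 alpha and gamma, had mean levels of 7.29 ± 0.31 and 6.65 ± 0.08 with LPS plus IFNg, 6.48 ± 0.35 and 6.03 ± 0.89 with IL4 (SD, n = 3) and 6.66 ± 0.07 and 6.22 ± 0.40 without stimulus (n = 2). Trim24 was higher in each LPS plus IFNg library than in all others, by 0.63 relative to no stimulus (95% interval -0.13 to 1.39, limma adjusted p = 0.350). Trim66 was listed at 0 in 5 of 8 libraries.

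The 3 NHL-repeat members gave no call. At an unadjusted limma p under 0.05, 6.57% of all rows were lower with IL4 than without stimulus, and 11.6% lower than with LPS plus IFNg. Of the 3 members, 1 was lower with IL4 than in both other groups at this p. That gene, Trim3, had levels of 5.30, 4.74 and 4.46 with LPS plus IFNg, was listed at 0, 3.35 and 0 with IL4, and had 4.86 and 3.86 without stimulus. Every IL4 library was below the others (adjusted p = 0.0702 for LPS plus IFNg against IL4 and 0.339 for IL4 against no stimulus). Trim2, a neuronal ubiquitin ligase that also holds an ISRE core match, averaged 5.76 ± 0.60 with LPS plus IFNg, 5.65 ± 0.58 with IL4 (SD, n = 3) and 5.44 ± 0.93 without stimulus (n = 2), and its difference between LPS plus IFNg and no stimulus was 0.31 (95% interval -1.16 to 1.79). Trim32 overlapped between all groups and was listed at 0 in 1 IL4 library.

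The last 14 members had no call, and at an unadjusted limma p under 0.05 only Trim45 was found, in LPS plus IFNg against IL4. Trim36, the only cytoskeletal and muscle member of 9 listed that varied, had levels of 3.64, 3.64 and 1.87 with LPS plus IFNg, 4.02, 4.19 and 5.98 with IL4 and 1.84 and 4.90 without stimulus. Among the 13 others, the best measured were Trim41, at 8.60 ± 0.70 with LPS plus IFNg, 7.32 ± 1.33 with IL4 (SD, n = 3) and 7.95 ± 0.30 without stimulus (n = 2), and Trim39, at 5.49 ± 0.34, 5.03 ± 0.73 and 6.05 ± 0.31 in the same order. Trim50, Trim40 and Trim69 were listed away from 0 in 1 library each, and the row of Trim69 equalled that of Col19a1 and the row of Trim50 those of Tdpoz2 and Mrgprb3. Over the whole family, 24 members were above 0 in every library, 10 were at 0 in 4 or more, and 4 had a value below 0.

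**Figure D4:**
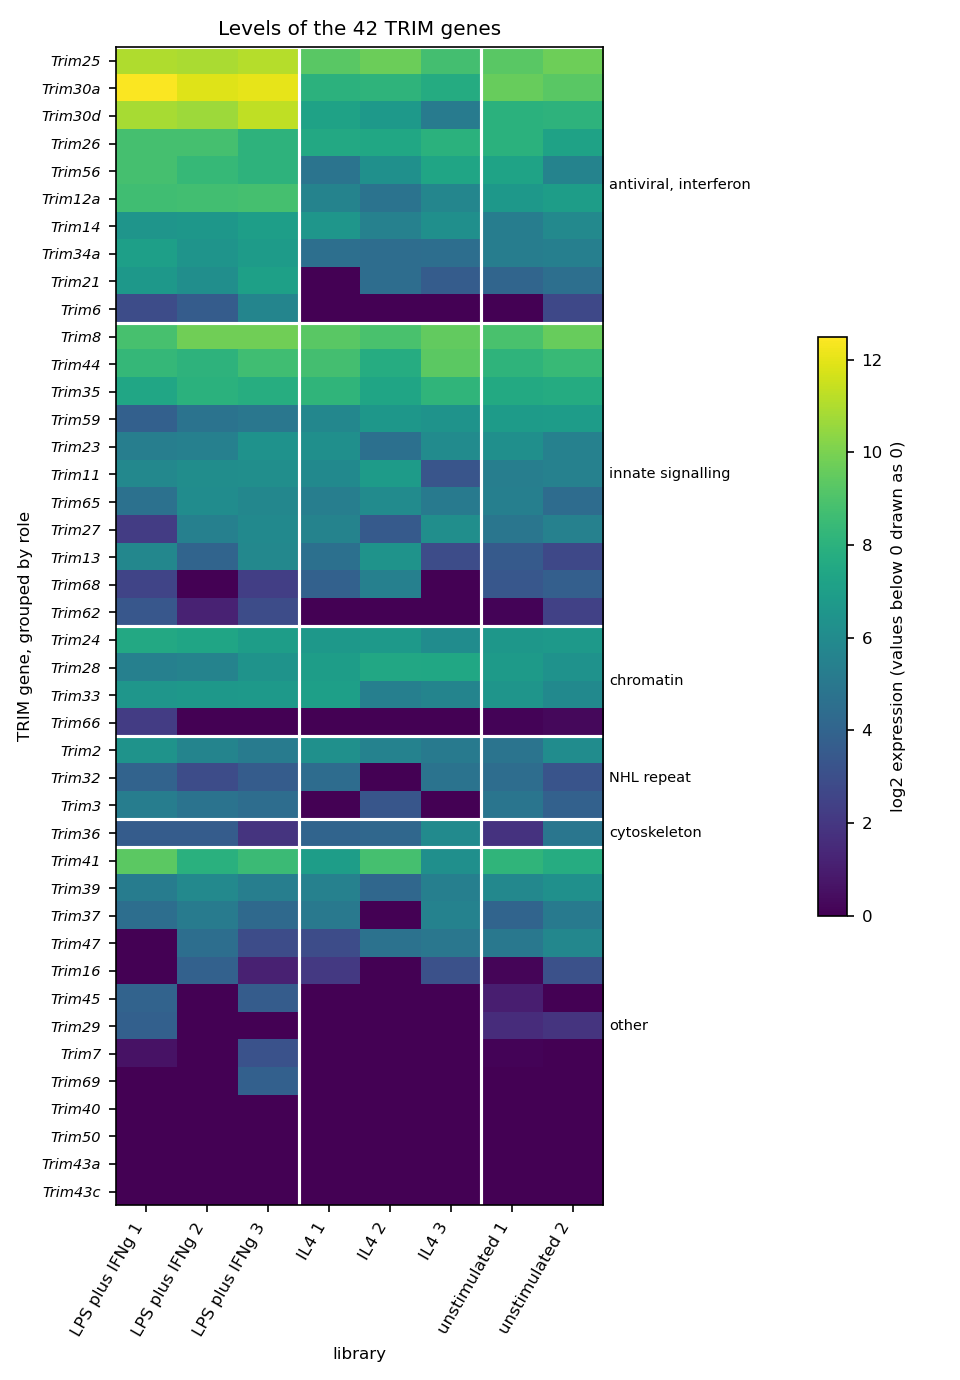
Log2 expression of the 42 TRIM genes (rows, by role and then by mean level) in the 8 libraries (columns, LPS plus IFNg, IL4, unstimulated), with values below 0 drawn as 0. Dark cells are low: between 6 and 9 members were listed at 0 in LPS plus IFNg libraries, 12 or 13 in IL4 libraries and 4 to 7 in unstimulated libraries.

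Zeros were unevenly spread. Among all rows tested, 2964 to 2985 were listed at 0 in LPS plus IFNg libraries, 3204 to 3568 in IL4 libraries and 1577 and 2588 in unstimulated libraries. No source used here says how counts of 0 were handled, so the size of differences from libraries at 0, as in Trim6, Trim21 and Trim3, is uncertain. Their part in the lower IL4 values of poorly measured members was not tested. Trim30a, Trim30d, Trim12a, Trim34a and Trim25 were above 0 in every library.

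Some TRIM proteins have other names. Of 7 such genes listed, 6 varied, and 1 was higher with LPS plus IFNg than without stimulus and 2 were higher with it than with IL4. Of all rows tested, 3.72% and 5.91% were called higher in these comparisons. None of the 6 passed for IL4 against no stimulus. At an unadjusted limma p under 0.05, 1, Pml, was lower, where 6.57% of all rows were. Mefv, which encodes the inflammasome sensor pyrin, had levels of 6.74, 7.0 and 6.43 with LPS plus IFNg, was listed at 0 in all IL4 libraries, and was at 3.23 and 0 without stimulus (limma adjusted p = 0.0305 against no stimulus and 0.00442 against IL4). Pml, the scaffold of PML nuclear bodies, had levels of 7.79, 7.22 and 8.05 with LPS plus IFNg, 4.55, 3.52 and 2.26 with IL4 and 5.53 and 6.14 without stimulus. Its groups did not overlap. LPS plus IFNg stood 4.24 above IL4 (SE 0.63, adjusted p = 0.00537), and the difference of 1.86 from no stimulus did not pass (adjusted p = 0.201).

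Interferon signalling, known to induce part of the family, was read from another list, also drawn up with results of these data known. Of 28 signalling genes and classical targets, 16 were higher and 1 lower with LPS plus IFNg than without stimulus (median difference 3.88). With IL4, 2 were higher and 6 lower than without stimulus (median -1.10). Between LPS plus IFNg and IL4, 19 were higher and 1 lower (median 4.67). The shares of all rows tested, in the same order, were 3.72% higher and 4.25% lower, 0.514% and 0.793%, and 5.91% and 6.96%. For LPS plus IFNg against no stimulus the smallest p-values were those of Socs1, a feedback inhibitor of Janus kinases (log2 difference 8.35), the antiviral enzyme gene Rsad2 (7.0), Ifit2 (7.02) and Gbp2 (7.77). Of 12 partners in RNA sensing, 1 was higher with LPS plus IFNg than without stimulus, Zc3hav1 (2.42, limma adjusted p = 0.0158). Compared with IL4, 4 were higher: Ddx58, which encodes RIG-I (4.49), Ifih1, which encodes MDA5 (4.46), Ube2l6 (2.88) and Zc3hav1 (1.60). None of the 12 passed for IL4 against no stimulus, and 1, Ddx58, was lower at an unadjusted limma p under 0.05.

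The split of all rows depends on the scaling. Setting the mean of 12 housekeeping genes equal in every library moved the median of all rows by 0.75 for LPS plus IFNg against no stimulus, by 0.68 for LPS plus IFNg against IL4 and by 0.07 for IL4 against no stimulus. The share of calls in the higher direction was then 82.6%, 80.3% and 46.8% of all calls, against 46.6%, 45.9% and 39.3% as deposited. The members' medians became 1.26, 1.39 and -0.14, beside medians of 0.71, 0.68 and 0.06 over all rows. The 6 antiviral members named above as higher than with IL4 were still called higher. The scaling shifts all genes of a library alike, so differences relative to the median of all rows are as in the deposited values, also for Trim59 and Trim28, which lost their calls against 0.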

How the data were processed

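Macrophage RNA was read by 3' end sequencing in 8 libraries. TopHat (an aligner) and build mm9 are listed, without a stated role, per the submitters' processing notes. No source used here gives the aligner version, the counting tool, or how counts of 0 and reads with several matches were handled. The authors deposited log2 values, which the table's name calls quantile normalised. The barcode in each label linked its column to a sample, and groups come from the labels. After leaving out rows with no symbol (1) and rows with 1 same value in every library, 13615 were tested.

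Group means over all 8 libraries were fitted in R 4.3.3 with limma 3.58.1, using an intensity trend and leaving 5 residual degrees of freedom. Tests were two-sided, with Benjamini-Hochberg adjustment over all rows tested and a threshold of 0.05. Folds are 2 to the power of the log2 difference. The script was tested on simulated data with log2 changes of 1, 2 and 4 in 67, 67 and 66 of 13615 rows. It called 0%, 20.9% and 50% of these for LPS plus IFNg against no stimulus. For IL4 against no stimulus it called 0%, 28.4% and 54.5%, and between the stimuli 4.48%, 26.9% and 69.7%. A gene that did not pass may thus have changed. The data gave 506 higher and 579 lower calls for LPS plus IFNg against no stimulus, more rows than the simulation changed. The Benjamini-Hochberg cutoff depends on this number, so the shares found in simulation need not hold for the data. Summed marker levels are the log2 of 1 plus the sum of linear values, with values listed at 0 left out of the sum.

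Members and lists were chosen with earlier results of these data known. Named were all members past the threshold, up to 4 others per role by mean level, and up to 4 genes of each other list by adjusted p. Where every library of a group was at 0, no fold is given. Gene order and promoter windows came from RefSeq tables of GRCm38, matched by symbol or accession, and transcript ends from GENCODE M21, with Python 3.11.15 and Biopython 1.88; no coordinates of the deposited build were used. Alternatives were no trend, only the 2 groups compared, the lowest 0.25 of rows left out, low values damped by adding 1, housekeeping scaling, a threshold of 0.01, values below 0 set to 0, a replicate block, and each library left out.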

Additional observations from a re-analysis of the deposited data

How the results depend on the processing

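With each library left out in turn, the number of TRIM members called ranged from 1 to 4 higher and 0 to 2 lower for LPS plus IFNg against no stimulus, from 5 to 8 higher and 0 to 1 lower for LPS plus IFNg against IL4, and from 0 to 0 higher and 0 to 2 lower for IL4 against no stimulus. Without LPS plus IFNg replicate 3 or either unstimulated library, 1 member was called higher against no stimulus. Housekeeping scaling gave 8 higher and 0 lower for LPS plus IFNg against no stimulus and 12 and 0 against IL4. At an adjusted p of 0.01 there were 1 higher and 0 lower against no stimulus, 0 lower against IL4, and 0 lower for IL4. With only the groups compared in the fit, 0 were lower with LPS plus IFNg in both comparisons and 1 member other than Trim30a was lower with IL4, and with no trend 0 were lower with IL4. Libraries with the same replicate number did not deviate together (correlations of -0.08 to 0.07 over 7 pairs). With the replicate number as a block, 1 member was higher and 0 lower for LPS plus IFNg against no stimulus, 5 and 0 against IL4, and 0 lower for IL4. Over all rows the block called 255 higher and 256 lower, against 506 and 579, for LPS plus IFNg against no stimulus, and 7 and 1, against 70 and 108, for IL4. Housekeeping scaling called 1252 and 263 of all rows against no stimulus, and 1837 and 451, against 804 and 948, compared with IL4. At 0.01, all rows gave 221 and 217, 427 and 379, and 8 and 2 in the order of the comparisons above. For IL4, only the groups compared gave 16 and 54, the lowest 0.25 of rows left out 110 and 136, and leaving out libraries 40 to 135 and 63 to 277; for LPS plus IFNg against no stimulus this last gave 332 to 531 and 369 to 581. The causes were not tested. No alternative turned the sign of a difference past the threshold in the 8 members with a call, while housekeeping scaling turned the split of all rows as given. The other named members were not followed singly through every alternative.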
